A study of Mus musculus with 6 samples.

Results

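The genes of the IL-6 family, its cytokines, receptor chains and feedback inhibitor, were examined in MS5, a stromal line from mouse bone marrow. PD184352, an inhibitor of the kinase MEK (MEKi), was given at 1 μM over 7 days, and control cultures received DMSO, its diluent. Members were the probe sets that name exactly 1 of 10 genes: the cytokines Il6, Lif, Il11, Osm, Ctf1 and Clcf1, the receptor chains Il6st, Lifr and Osmr, and the inhibitor Socs3. All 10 genes were measured, out of 19938 genes with a probe set of their own on the array, by 11 of 28853 probe sets, since Socs3 had a pair. The 3 independent experiments each comprised a diluent culture and a MEKi culture, and each culture gave 1 Affymetrix whole-transcript array, 6 in all. The labels name stromal cells alone. All arrays come from the same cell line, so the 3 experiments are repeats of it rather than separate animals.

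Cytokines of this family signal through gp130, the receptor chain encoded by Il6st, alone or paired with the receptor chains of LIF (Lifr) or oncostatin M (Osmr). The receptors activate JAK kinases, which phosphorylate STAT3, and they also feed the RAS, MEK and ERK cascade through the phosphatase SHP2. SOCS3 is made in response to STAT3 and binds gp130 to shut the signal off. In bone marrow, stromal cells are a known source of IL-6 and LIF, which act on haematopoietic cells and on the stroma itself.

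Values are log2 intensities normalized by the authors with the robust multichip algorithm (RMA). The conditions were compared within experiments by limma, which fits a linear model to each probe set and shares variance information between them. An adjusted p (Benjamini-Hochberg, all 28853 probe sets) under 0.05 counted as passing. Array medians ran from 6.29 to 6.38. The MEKi array of experiment 2 had the highest, 6.38, beside 6.29 for its diluent array. Within experiments 1 and 3 both arrays had the same median to this precision, 6.29 and 6.32. The main fit did not correct for this, so small MEKi differences in experiment 2 can include it. Of 14 stromal marker genes measured, 11 lay above 5.71, the level below which 95% of 1035 probe sets of olfactory receptors fell. Olfactory receptor genes are silent in most tissues, so that level served as a rough mark of background, although probes differ in their own background. Thy1, Nt5e and Lum were the stromal markers not above it. Of 14 leukocyte markers, 6 lay above it, and the pan-leukocyte marker Ptprc was not among them. The adipocyte markers Adipoq, Fabp4, Plin1 and Cidec lay well above it, at 9.58 to 12.16.

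Promoter sequences are shown for the members that carry letters read by AP-1, a factor whose subunits include the product of Fosl1, or by STAT proteins, both known regulators of this family. Windows from RefSeq, of 250 bases before to 50 after a gene's start on GRCm38.p6, were available for 8 members, 10 windows in all, and Osm and Clcf1 had none. They were searched on both strands for TGANTCA (AP-1) and TTCNNNGAA (STAT), where N is any base. Both motifs were chosen with the array values known, and that of NF-κB, searched as well, is not reported here. AP-1 letters stood in 4 of the 10 windows, those of Il6, Lif, Il11 and Osmr, and in 7.81% of all 32851 windows. STAT letters stood in 1, that of Socs3, and in 8.3% of all windows. Windows of Ctf1, Il6st and Lifr held neither, nor did another window of Il11, at chr7:4782808-4783107. No matches overlapped. Each match is in capitals, with up to 50 bases on either side, 5′ to 3′ along the gene's strand.

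Lif, AP-1, chr11:4257318-4257396, + strand, 228 bases before the start: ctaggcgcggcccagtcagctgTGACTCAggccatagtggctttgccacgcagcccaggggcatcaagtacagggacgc
Il11, AP-1, chr7:4778183-4778289, − strand, 98 bases before the start: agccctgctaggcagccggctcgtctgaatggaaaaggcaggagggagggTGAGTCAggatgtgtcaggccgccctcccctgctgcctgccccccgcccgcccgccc
Il6, AP-1, chr5:30012864-30012921, + strand, 249 bases before the start: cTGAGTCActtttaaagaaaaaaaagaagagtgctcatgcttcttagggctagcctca
Osmr, AP-1, chr15:6874284-6874360, − strand, from base 4 of the transcript: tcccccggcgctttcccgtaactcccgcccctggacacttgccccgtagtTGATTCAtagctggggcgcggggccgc
Socs3, STAT, chr11:117969462-117969570, − strand, 154 bases before the start: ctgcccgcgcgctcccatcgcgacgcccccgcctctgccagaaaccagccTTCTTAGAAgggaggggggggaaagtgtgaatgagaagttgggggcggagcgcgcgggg

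None of the 11 probe sets passed the test, in either direction. Over all probe sets, 0.159% passed, 0.104% as higher with MEKi and 0.0555% as lower. Lifr had the smallest adjusted p, 0.381 from limma, and the only unadjusted p under 0.05 (1 of 11, against 9.89% of all probe sets). Taken without the pairing by experiment, values with MEKi and diluent overlapped for each of the 11, and 7.86% of all probe sets had groups that did not overlap. The log2 changes ran from −0.32 to 0.12 with a median of −0.026, beside 0.037 for all probe sets. Each of the 11 intervals of 95% confidence lay within a change of 1.5-fold in either direction, as did 96.8% of all intervals, and these intervals are not adjusted for their number. On dim probe sets the array scale compresses changes, so intervals there bound the measured signal more than the mRNA.

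**Figure D1:**
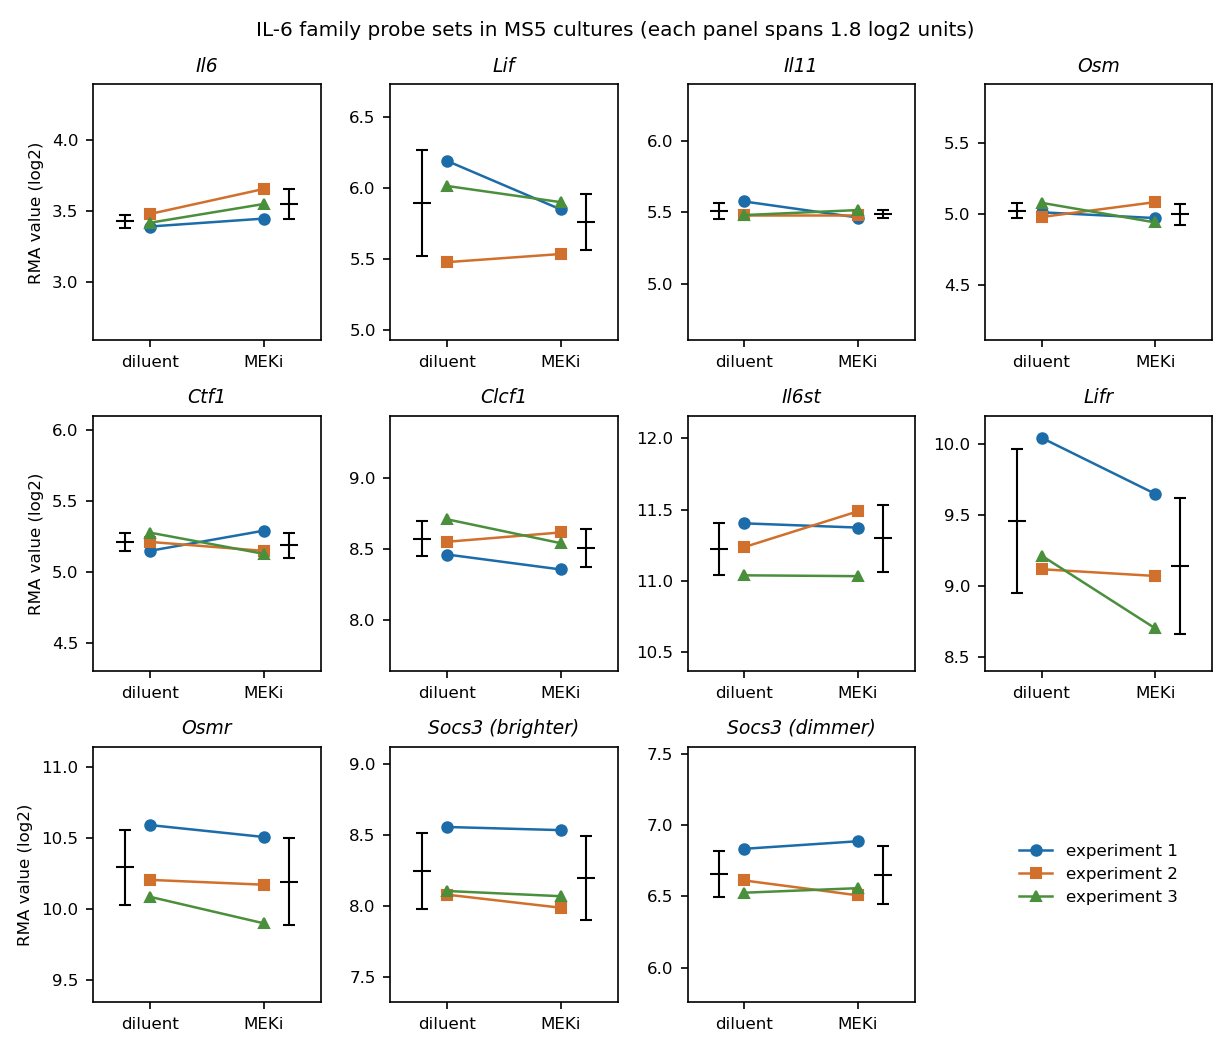
RMA values on the log2 scale (y axis) of the 11 IL-6 family probe sets in diluent and MEKi cultures (x axis), with 1 panel per probe set and the same span in each; a line links both cultures of each experiment, and black bars are the mean ± SD of 3 cultures. Experiment 1 lies highest in both conditions for Lifr, Osmr and both Socs3 probe sets, and the conditions overlap in each panel.

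The receptor chain genes were bright. Lifr (probe set 10422822) encodes the chain that binds LIF and pairs with gp130. It measured 10.04, 9.12 and 9.21 with diluent in experiments 1, 2 and 3, and 9.65, 9.07 and 8.70 with MEKi. MEKi was thus lower in each experiment, with differences of −0.39, −0.047 and −0.51, yet the MEKi culture of experiment 1 lay above both other diluent cultures. The log2 change was −0.32 (standard error 0.103, n = 3 experiments, unadjusted p = 0.0169 and adjusted p = 0.381 from limma). As a ratio, Lifr was at 0.802 of its diluent level, with a 95% confidence interval from 0.679 to 0.949. It had the largest change of the 11, and it did not pass. In experiment order, the mean of 5 adipocyte marker genes was 8.77, 10.36 and 9.72 with diluent and 9.16, 10.27 and 10.37 with MEKi. It was thus higher with MEKi in experiments 1 and 3, where Lifr differed most. A small difference in experiment 2 was not particular to these genes. Cd68, a leukocyte marker, differed by −0.93, −0.14 and −0.74, and Pim1, a gene that responds to STAT3, by −0.88, −0.09 and −1.14. Of these 5 markers none passed, and 3 were higher with MEKi at an unadjusted p under 0.05. Over all probe sets, 7.58% were higher and 2.31% lower at that threshold. Of 14 leukocyte markers none passed, and at the same unadjusted threshold Cd53 (−0.75) and Cd68 (−0.61) were lower and Lyz2 (0.42) and Cd14 (0.25) higher. Their list mean ranged from 5.94 to 6.11 with diluent and from 5.97 to 6.01 with MEKi. Cd68, Lyz2, Cd14, Cd53, Cd3e and Csf1r lay above the background mark, Csf1r only just. The other leukocyte markers, Ptprc, Itgam and Adgre1 among them, did not. Of 14 stromal markers none passed, and Vcam1 (−0.57) and Postn (−0.62) were lower and Cxcl12 (0.22) and Eng (0.22) higher at that threshold. Their list mean ranged from 9.43 to 9.61 with diluent and from 9.36 to 9.58 with MEKi. The part of any of these markers in the Lifr difference was not tested.

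Osmr (10427471), the oncostatin M receptor chain, measured 10.59, 10.21 and 10.09 with diluent and 10.51, 10.17 and 9.90 with MEKi. It too was lower in all 3 experiments, with differences of −0.19 to −0.034 (log2 change −0.10, standard error 0.075, adjusted p = 0.715 from limma). Probe sets lower with MEKi in all 3 experiments made up 7.98% of the array, and Lifr, Osmr and the brighter Socs3 probe set were the 3 among the 11. Osmr and Lifr lie near each other on chromosome 15 in the GRCm38.p6 gene table, with 3 other genes listed between them and none of these protein-coding.

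Il6st (10407173), which encodes gp130, measured 11.40, 11.24 and 11.04 with diluent and 11.37, 11.49 and 11.03 with MEKi. In experiments 1 and 3 its cultures differed by −0.030 and −0.006, while MEKi was higher by 0.25 in experiment 2. The log2 change was 0.072 (standard error 0.086, adjusted p = 0.833 from limma), a ratio of 1.05 with a 95% confidence interval from 0.914 to 1.21.

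Of the 6 cytokine genes, Clcf1 was the 1 above the array's median of 6.32, and Lif lay between that median and the olfactory receptor mark. Il6, Il11, Osm and Ctf1 did not exceed the mark in their means over the 6 arrays, so their values lay close to background. Clcf1 (10460385) encodes cardiotrophin-like cytokine factor 1, which signals through gp130 and the LIF receptor chain. Its diluent values were 8.46, 8.55 and 8.71, and its MEKi values 8.36, 8.62 and 8.54. MEKi was lower in experiments 1 and 3 and higher in experiment 2 (log2 change −0.069, standard error 0.080, adjusted p = 0.828 from limma).

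Lif (10373918), leukaemia inhibitory factor, measured 6.19, 5.48 and 6.01 with diluent and 5.85, 5.53 and 5.90 with MEKi. The difference was −0.34 in experiment 1, 0.057 in experiment 2 and −0.11 in experiment 3. Both cultures of experiment 2 lay below the background mark of 5.71, which Lif exceeded only in its mean over the arrays and in experiments 1 and 3. Averaged over experiments, the difference of −0.13 on the log2 scale (adjusted p = 0.698 from limma, standard error 0.094) did not pass. In the gene table Lif lies next to Osm on chromosome 11, with 0 genes listed between them.

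Il6 (10520452), the founding cytokine of the family, was the dimmest of the 11. It measured 3.39, 3.48 and 3.41 with diluent and 3.44, 3.65 and 3.55 with MEKi, below 4.15, the median of the olfactory receptor probe sets. MEKi was higher in all 3 experiments, by 0.056, 0.18 and 0.13, as were 23.8% of all probe sets. Its log2 change was 0.12 (standard error 0.074, adjusted p = 0.653 from limma). Its probe set thus stayed under the background mark in both conditions.

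Osm (10373912), oncostatin M, a cytokine made mainly by leukocytes, ranged from 4.98 to 5.08 with diluent and from 4.94 to 5.08 with MEKi. Il11 (10559667), interleukin 11, ranged from 5.48 to 5.58 with diluent and from 5.46 to 5.52 with MEKi. Ctf1 (10557738), cardiotrophin 1, ranged from 5.15 to 5.28 with diluent and from 5.13 to 5.29 with MEKi. The log2 changes of these 3 were −0.025, −0.026 and −0.024, with adjusted p-values of 0.948, 0.941 and 0.953 from limma. None of the 3 had the same direction in all experiments.

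Socs3, the feedback inhibitor of gp130 signalling, had a brighter probe set (10393449) and a dimmer one (10383010). The brighter measured 8.56, 8.08 and 8.11 with diluent and 8.53, 7.99 and 8.07 with MEKi, slightly lower in each experiment (log2 change −0.050, standard error 0.072, adjusted p = 0.865 from limma). The dimmer measured 6.84, 6.61 and 6.53 with diluent and 6.89, 6.51 and 6.56 with MEKi. It was higher in experiments 1 and 3 and lower in experiment 2 (log2 change −0.007, adjusted p = 0.986 from limma). For the brighter probe set the 95% confidence interval of the ratio ran from 0.858 to 1.09, and for the dimmer from 0.879 to 1.13.

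The 4 genes with a promoter window that held the AP-1 letters shown above had log2 changes of 0.12 (Il6), −0.13 (Lif), −0.026 (Il11) and −0.10 (Osmr) with MEKi. Lifr, with neither motif in its windows, had −0.32, and Socs3, with the STAT letters, −0.050 and −0.007 for its probe sets. The matches describe letters in these windows and were not tested for binding.

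**Figure D2:**
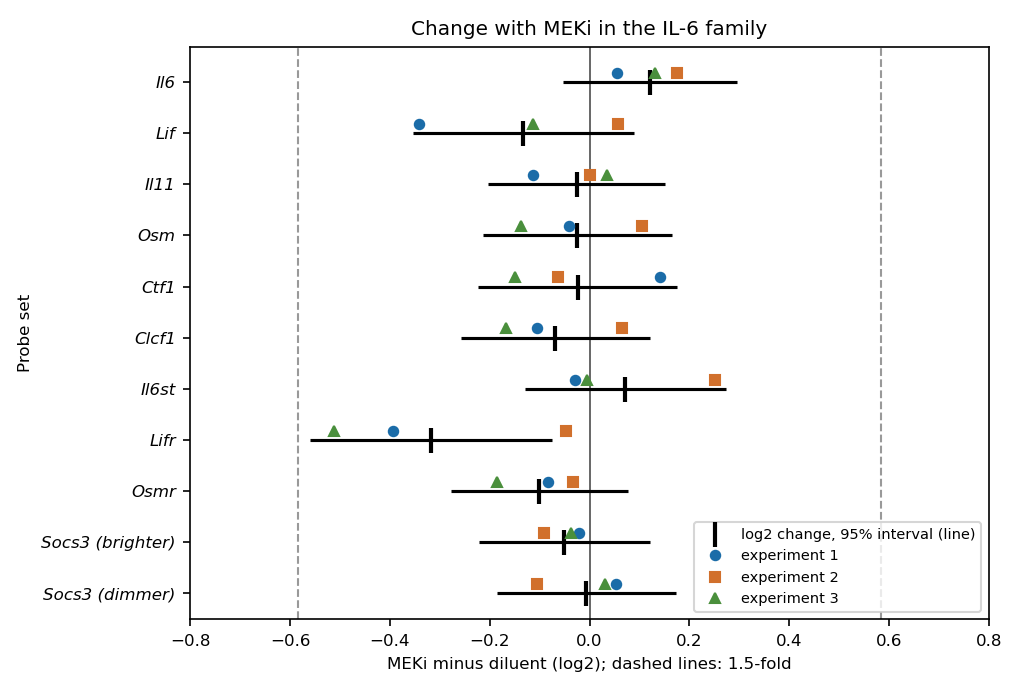
Difference between MEKi and diluent (x axis, log2) for the 11 IL-6 family probe sets (y axis); coloured points are the 3 experiments, black ticks the log2 changes from limma and black lines their 95% confidence intervals. Lifr lies lowest at −0.32 and Il6 highest at 0.12, and each interval lies between the dashed lines at 1.5-fold.

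Levels also differed from experiment to experiment. For each of the 11 probe sets the highest minus the lowest experiment mean exceeded the size of the MEKi change, as for 83.9% of all probe sets. This difference between experiments was tested with the F test of the same limma fit, adjusted over all probe sets, a test chosen after the values were seen. Lifr, Osmr and the brighter Socs3 probe set passed, 3 of 11, against 7.69% of all probe sets. All 3 were highest in experiment 1, as were 43.4% of the 2218 probe sets that passed, and 43.9% of those were lowest in it.

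Lifr averaged 9.84 in experiment 1, 9.09 in experiment 2 and 8.96 in experiment 3 (adjusted p = 0.0141 from limma's F test). Osmr averaged 10.55, 10.19 and 9.99 (adjusted p = 0.0295), and the brighter Socs3 probe set 8.55, 8.03 and 8.09 (adjusted p = 0.0265). The dimmer Socs3 probe set was ordered with experiment 1 highest too, at 6.86, 6.56 and 6.54, without passing (adjusted p = 0.112). Lif averaged 6.02, 5.51 and 5.96, lowest in experiment 2, where it lay below the background mark, and did not pass (adjusted p = 0.0597). Il6st averaged 11.39, 11.36 and 11.03 (adjusted p = 0.12). The labels do not say what set the experiments apart.

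Adipocyte markers also differed between the experiments, and were lowest in experiment 1. The mean of the 5 measured was 8.97 in experiment 1, 10.31 in experiment 2 and 10.05 in experiment 3. By condition it ranged from 8.77 to 10.36 with diluent and from 9.16 to 10.37 with MEKi. Adipoq, Fabp4, Plin1 and Cidec passed the F test, against 7.69% of all probe sets. All 4 were lowest in experiment 1, as were 43.9% of all that passed. Lep did not pass and was not above background. The mean of the 14 stromal markers was 9.54, 9.54 and 9.39, and of these Eng alone passed, at 11.25, 10.80 and 10.64. The mean of the 14 leukocyte markers was 6.05, 5.96 and 6.02. Of these Lyz2 (8.66, 7.86 and 7.68), highest in experiment 1, and Cd68 (10.16, 9.03 and 11.04) passed. None of 5 endothelial markers passed. The part of these markers in the higher Lifr, Osmr and Socs3 signal of experiment 1 was not tested. In cultures of this kind, fewer cells of a type and less RNA per cell cannot be told apart.

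**Figure D3:**
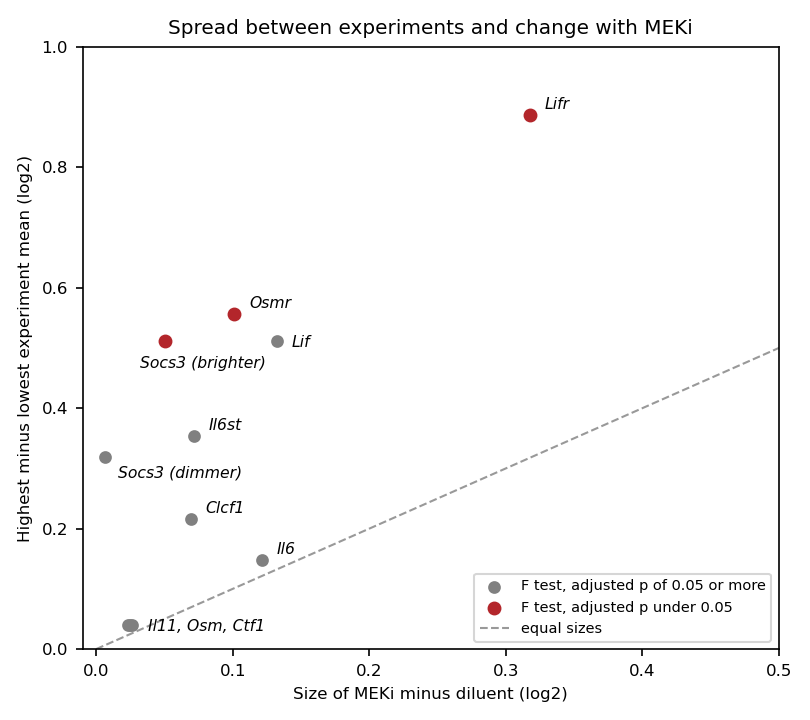
Highest minus lowest of the 3 experiment means (y axis, log2) against the size of the MEKi change (x axis, log2) for the 11 IL-6 family probe sets; red points passed the F test between experiments. All 11 lie above the line of equal sizes, with Lifr at 0.89 on the y axis and 0.32 on the x axis.

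Among 10759 other genes at or above the array's median, the 3 whose 6 values lay closest to those of Lifr, each gene centred on its own mean, were Ahr, Lrrc32 and Cd80. Their root mean square distances from Lifr were 0.138, 0.146 and 0.160 on the log2 scale. Ahr, the aryl hydrocarbon receptor, averaged 8.34, 7.66 and 7.56 in experiments 1, 2 and 3. Its MEKi differences were 0.038, 0.092 and −0.50. Lrrc32, which holds latent TGF-β on the cell surface, had a log2 change of −0.22 (adjusted p = 0.577 from limma), and Cd80, a costimulatory ligand of T cells, one of −0.11 (adjusted p = 0.735). That all 3 were highest in experiment 1, as Lifr was, follows from how they were chosen.

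Other ligands and receptor chains of the family and its relatives were read from a list of 17 genes, of which 13 had a probe set of their own. None passed, and the median change was 0.018. At an unadjusted p under 0.05, 1 was higher and 1 lower, beside 7.58% and 2.31% of all probe sets. Il12rb1, a receptor chain for IL-12 and IL-23 in lymphocytes, had the largest value. It was lower in all 3 experiments (log2 change −0.40, standard error 0.081, unadjusted p = 0.00164 and adjusted p = 0.183 from limma). Ctf2, a cardiotrophin gene, had a log2 change of 0.21 (adjusted p = 0.413), Ebi3, a subunit of IL-27, of −0.14 (0.591), and Lepr, the leptin receptor, of −0.095 (0.75). Of the 13, 8 exceeded the olfactory receptor mark in their means, and Ebi3 and Lepr were not among these. Il6ra, the IL-6 binding chain, was chosen here after its values were seen, because IL-6 signalling needs it. It measured 10.15, 9.49 and 9.82 with diluent and 10.02, 9.63 and 9.79 with MEKi (log2 change −0.008, adjusted p = 0.985 from limma).

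Of 15 measured transducers between the receptors and the nucleus none passed, with a median of 0.064. At an unadjusted p under 0.05, 1 was higher, beside 7.58% of all probe sets. The largest values were those of Stat5a (log2 change 0.21, adjusted p = 0.552 from limma), Ptpn11 (0.20, 0.462), which encodes SHP2, Sos1 (0.19, 0.514), an exchange factor for RAS, and Stat5b (0.14, 0.601). Stat3, the main transducer of the family, was chosen after its values were seen and stood at 0.067 (adjusted p = 0.814). Of 16 measured inhibitors none passed either, with a median of 0.026. At an unadjusted p under 0.05, 2 were higher, beside the same 7.58%. Cish, a SOCS protein induced by STAT5, was higher in all 3 experiments, by 0.32, 0.18 and 0.79 (log2 change 0.43, adjusted p = 0.33 from limma). Socs2, which restrains growth hormone signalling, was higher in all 3 as well (0.30, adjusted p = 0.316), and its second probe set had 0.31 (0.232). Of all probe sets, 23.8% were higher with MEKi in all 3. Pias3, an inhibitor of STAT3, had 0.18 (adjusted p = 0.549) and Sh2b3, an adaptor that restrains JAK2, −0.15 (0.564).

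Of 29 measured genes known to respond to STAT3, none passed. The list was chosen with earlier results of these data known, so the counts that follow are a description. At an unadjusted p under 0.05, 10 were lower and 4 higher, beside 2.31% and 7.58% of all probe sets. In all 3 experiments 14 were lower and 8 higher, beside 7.98% and 23.8% of all, and the median was −0.13. Lcn2, an iron-binding defence protein, had differences of −2.34, −1.19 and −0.58 (log2 change −1.37, standard error 0.282, adjusted p = 0.186 from limma). Pim1, a survival kinase, had −0.70 (adjusted p = 0.282), Fos, an AP-1 subunit, −0.62 (0.398), and Ccl2, a monocyte chemokine, −0.53 (0.0783). Without experiment 3 Lcn2 passed (log2 change −1.76, adjusted p = 0.0251), and Ccl2 passed in a fit over probe sets naming 1 gene (adjusted p = 0.038), with an intensity trend (0.0151) and with array weights (0.0496). Many of these genes, Fos among them, respond to ERK too, so the list does not read STAT3 alone. Of the 29, 11 passed the F test between experiments, against 7.69% of all probe sets. Of these 11, 5 were highest and 3 lowest in experiment 1, beside 43.4% and 43.9% of all that passed.

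In the same arrays, 18 genes known as outputs of the ERK pathway were measured, and 2 fell, Ccnd1 (cyclin D1) by 1.32 and Fosl1, an AP-1 subunit, by 0.81 on the log2 scale (adjusted p = 0.03 and 0.0319 from limma, lower in all 3 experiments). None rose, 16 did not pass, and the median of the list was −0.41. Probe sets that passed as lower made up 0.0555% of the array. This list was chosen when Ccnd1 and other ERK targets were already known to be lower in these arrays, so its count is a description. The count was 0 without experiment 2, 1 without experiment 1, and 0 without the pairing of cultures by experiment. Over all probe sets, 46 passed in the main fit, beside 0, 14 and 0 in these 3 fits, so the loss was not particular to this list.

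**Figure D4:**
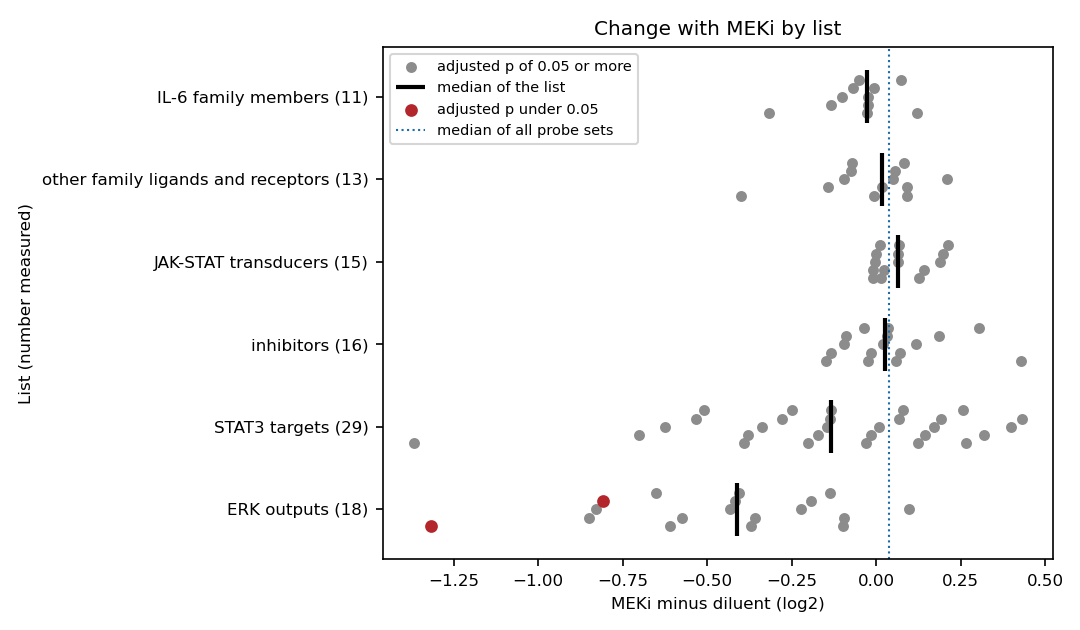
Change with MEKi (x axis, log2) for the 11 IL-6 family probe sets and for 5 lists of related genes with 1 probe set per gene (y axis, number measured in brackets); red points passed at an adjusted p under 0.05 from limma, black bars are list medians and the dotted line is the median of all probe sets. The IL-6 family lies around −0.026 with none passed, and the ERK outputs around −0.41 with 2 passed.

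The study's methods select by p and by a change of 1.5-fold, after an analysis of variance, and print the p threshold with a percent sign. Read without that sign, as an unadjusted p up to 0.05 and here from limma, the rule selected 0 of the 11 probe sets, against 0.537% of all. Read with it, as a p up to 0.0005, it selected 0 of the 11 as well, against 0.239% of all. With 1.2-fold in place of 1.5-fold and a p up to 0.05, 1 was selected, Lifr.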

How the data were processed

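Total RNA of 3 diluent and 3 MEKi cultures was hybridized to Affymetrix mouse Gene ST arrays. The authors normalized the intensities by RMA and deposited log2 values of 28853 probe sets per array. Quality controls were run in Partek, in a version not stated. The values were used as deposited, without filter, and 0 array columns were excluded. A genome build for the arrays was not given in the sources used here. A probe set was named where its annotation lists 1 gene (21789; 1621 list several and 5443 none). For list genes with more than 1 probe set, the brightest stood for the gene. Members and lists were chosen with earlier results of these data known. From each list up to 4 genes are named, those past the threshold first, then by size of change. Il6ra and Stat3 were added to these.

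The comparison of MEKi and diluent was fitted in limma 3.58.1 (R 4.3.3), with the experiment as a block (2 residual and 5.17 prior degrees of freedom). The labels number the experiments, and arrays sharing a number deviated together from their condition's mean (r across probe sets 0.586 to 0.812, other pairs −0.605 to 0.207). The fit was first tested on simulated data, where it passed 34 of 67 probe sets given a 1.5-fold change and 66 of 67 given a 2-fold change. More probe sets passed in the simulation than the 46 of the real arrays, which makes an adjusted p under 0.05 easier to reach there. The simulated shares may thus overstate the power for the real arrays. Vcam1, for 1, had a log2 change of −0.57 and did not pass (adjusted p = 0.0942 from limma). A true change of 1.5-fold could thus be missed. The number of arrays limits the precision. Figures used matplotlib 3.10.9.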

Additional observations from a re-analysis of the deposited data

How the results depend on the processing

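None of the IL-6 family probe sets tested passed under any of the 11 alternatives, of which 10 tested all 11 and that of brighter probe sets tested 6, without Il6, Lif, Il11, Osm and Ctf1. These were a fit with no replicate block (0 passed), a random block, a further quantile normalization, centring on array medians, restriction to brighter probe sets or to those naming 1 gene, a robust prior with an intensity trend, weights per array, and each experiment left out in turn. Of all 28853 probe sets, 0 passed without experiment 2, and the same held for the random block, the centred arrays and the unpaired fit. In those fits a count of 0 was thus fixed for the members and for any list, and it says nothing about them. The smallest adjusted p of a member was 0.216, for Lifr with array weights. The Lifr change ran from −0.45 (without experiment 2) to −0.22 (without experiment 3), and its unadjusted p from 0.00257 (without experiment 2) to 0.347 (with no replicate block). Of 116 member values, 110 kept their direction and 6 did not, and the cause was not tested. With 1 experiment left out, Il11 ran from −0.056 (without experiment 3) to 0.018 (without 1), Osm from −0.089 (without 2) to 0.032 (without 3), Ctf1 from −0.11 (without 1) to 0.039 (without 3), Il6st from −0.018 (without 2) to 0.12 (without 1), and the dimmer Socs3 probe set from −0.036 (without 1) to 0.043 (without 2). That probe set stood at 0.011 with array weights. By the methods' criterion 0 members were selected under each of these and with p of at most 0.0005 or an analysis of variance, and 1 with 1.2-fold. Among STAT3 targets, 1 passed with probe sets naming 1 gene, with the trend, with array weights and without experiment 3, so that the count ran from 0 to 1 when an experiment was left out. ERK outputs numbered 0 with no replicate block, with a random block or after centring, 5 with probe sets naming 1 gene or with the trend, 4 with array weights, and 0 to 2 when an experiment was left out. The count of all probe sets that passed moved too, from 46 in the main fit to 61 with probe sets naming 1 gene, 115 with the trend and 57 with array weights. It was 15 after a further quantile normalization, 25 among brighter probe sets, 14 without experiment 1 and 37 without experiment 3. In alternatives chosen after seeing the data, the F test between experiments passed 3 to 5 members. Lif was added after a further quantile normalization, after centring, over probe sets naming 1 gene and with the trend, and Il6st with the trend, which gave 5. Il6, Il11, Osm and Ctf1 did not exceed the background mark in their means, which limits what their values can show. Il6 kept its direction in each alternative that tested it, while Il6st and the dimmer Socs3 probe set, both above the mark, did not.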
